A study of Arabidopsis thaliana with 15 samples.

Results

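Closed flower buds of the Arabidopsis thaliana mutant ref6-3 were compared with closed buds of the wild type across all measured genes, with attention to pathways, gene families and small changes outside the pollen and jasmonate programs. The comparison was taken by its count columns, 3 ref6-3 libraries and 3 wild-type (WT) libraries of the 15 in the series, and covered 22586 tested genes of 33323 listed. Both groups are labelled as Col0 background, as unopened flowers of plants 5 weeks old, grown untreated in a greenhouse under long days, and the WT carries no named mutation. The labels name ref6-3 by its allele without describing the lesion, and give no number of plants per library. Another mutant of the same gene, ref6C, appears below with 2 libraries as a test of where ref6-3 differs; the series also holds a double and a triple mutant built on ref6C. Replicates are numbered but not said to come from separate plants, so the p-values cover only library-to-library spread, and that may be technical.

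REF6 is a JmjC-domain enzyme that removes methyl groups from lysine 27 of histone H3, the mark by which the Polycomb system keeps genes silent. Zinc fingers at its end bind DNA and bring it to its targets. Loss of such an enzyme is known to leave some genes marked and silent, and REF6 is known in Arabidopsis for roles in flowering time, brassinosteroid response and organ boundaries.

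Total counts lay between 26113603 and 28777299 in ref6-3 libraries and between 27106757 and 34140165 in WT libraries. Levels are CPM, counts scaled to a common library total with TMM factors, given per library or as mean ± SD (n = 3 each), and differences are log2 fold changes of ref6-3 over WT ± SE from an edgeR quasi-likelihood test. A gene was called when its Benjamini-Hochberg adjusted p over all tested genes was below 0.05. The spread between libraries was small (biological coefficient of variation 2.499%), and changes of less than 1.2-fold passed the test in many genes. In ref6C replicate 3 counts were found in 29547 genes, beside 25055 to 25712 in the other 14 libraries. By an earlier reading of the file headers, the authors left this library out of their own statistics. Its own column label does not say so. It was left out here. All 20 tapetum markers and all 15 markers of stigma, style and transmitting tract passed the filter on low counts, in a tissue labelled as closed buds.

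The targeted transcript was lower in the mutant. REF6 (AT3G48430) had 31.7, 32.8 and 34.6 CPM in ref6-3 and 68.03, 71.4 and 68.1 CPM in WT, a log2 fold change of -1.07 ± 0.04 (adjusted p = 8.5e-18). The groups did not overlap, and transcript remained in the mutant. Of the related demethylase genes, ELF6 (AT5G04240) was not called (-0.01 ± 0.04, adjusted p = 0.87), and JMJ13 (AT5G46910) averaged 21.5 ± 0.18 CPM in ref6-3 and 24.7 ± 0.54 CPM in WT, a small fall (-0.20 ± 0.05, adjusted p = 9.2e-04).

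In ref6-3, 4101 genes (18.2% of those tested) were higher and 3924 (17.4%) lower than in WT. At 2-fold or more, 164 genes (0.726%) were higher and 1143 (5.06%) lower. The directions were thus nearly balanced in number and unlike in size. Of the higher genes, 2814 (68.6%) differed by less than 1.2-fold and 32 by 4-fold or more. Of the lower genes, 1231 (31.4%) differed by less than 1.2-fold and 385 by 4-fold or more. Genes that rose by less than 1.2-fold had a median level of 45.1 CPM in WT, and those that rose 2-fold or more had 0.258 CPM. For falls these medians were 43.5 CPM under 1.2-fold and 2.48 CPM at 2-fold or more, beside 18.4 CPM over all tested genes. These medians cover called genes only, and counts are not corrected here for gene length. Small changes pass the test mainly where reads are many, and the WT level is also the base of each fold change. The medians therefore cannot show whether the size of a change depends on level. The median log2 fold change over all tested genes was 0.01. With the 6 libraries of these groups alone in the fit, 3288 genes were higher and 4069 lower, so which direction held more genes at any size depended on the fit; at 2-fold or more it was 108 and 1076.

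**Figure D1:**
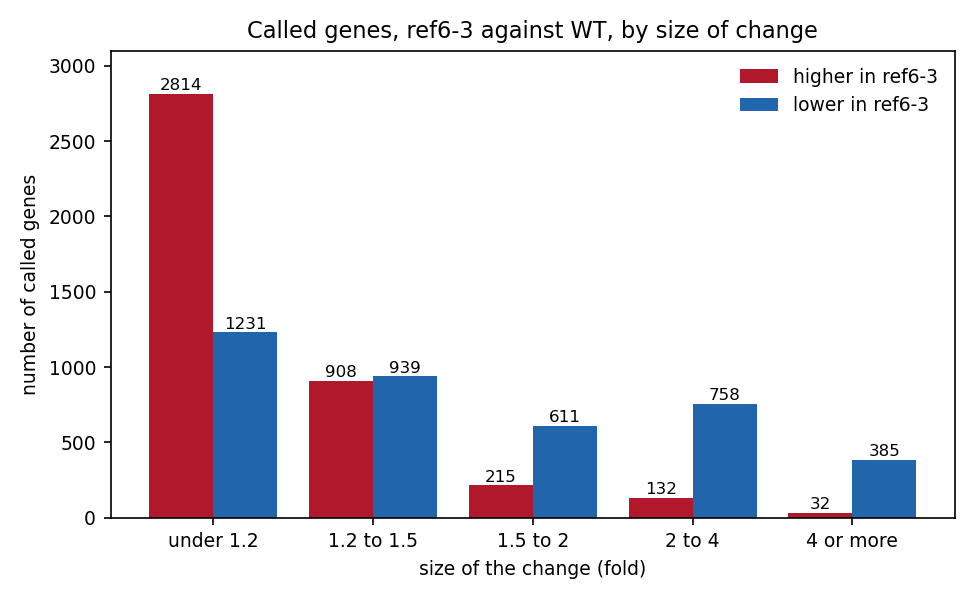
Number of called genes in ref6-3 against WT (y axis) by the size of the change (x axis, fold in bins), with higher genes and lower genes as separate bars. Under 1.2-fold there are 2814 higher and 1231 lower genes, while at 4-fold or more there are 32 higher and 385 lower ones.

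Large rises were few. MRD1 (AT1G53480), named for its response in a methionine-overaccumulating mutant, had 41.3, 40.3 and 37.1 CPM in ref6-3 and 0.235, 0.262 and 0.181 CPM in WT (7.41 ± 0.12, adjusted p = 5.5e-27). HEI10 (AT1G53490), a RING protein of meiotic crossover formation, had 22.1, 22.4 and 21.2 CPM in ref6-3 and 6.41, 6.09 and 5.62 CPM in WT (1.86 ± 0.07, adjusted p = 3.6e-18). The annotated spans of this pair overlap on opposite strands of chromosome 1. The libraries were made with a stranded kit, per the labels' protocols. No source used here says if counting was by strand, so their reads may not be fully apart. Of 21 tested meiocyte markers HEI10 was the one called, and the others lay between -0.26 and 0.15 on the log2 scale. The list summed to 205 to 209 CPM in ref6-3 libraries and 187 to 189 CPM in WT libraries. These sums include HEI10, which averaged 21.9 CPM in ref6-3 and 6.04 CPM in WT and may share reads with MRD1. AT2G01422, a noncoding RNA locus of chromosome 2 with no description, had 75.8, 72.9 and 72.5 CPM in ref6-3 and 1.81, 2.07 and 1.92 CPM in WT (5.25 ± 0.07). These 3 loci come from a ranking by fold change that took only genes without overlap between the groups. The means of the 2 ref6C libraries were 0.507 CPM for MRD1, 7.22 CPM for HEI10 and 6.08 CPM for AT2G01422.

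Other genes at the upper end of the ranking, which took genes with mean log2-CPM not under 1 and no overlap between groups, rose between 2-fold and 4-fold. EXLB1 (AT4G17030), an expansin-like wall protein gene, averaged 5.17 ± 0.37 CPM in ref6-3 and 1.36 ± 0.018 CPM in WT (1.92 ± 0.14). MLP43 (AT1G70890), of the major latex protein family, rose by 1.68 ± 0.14, AtPRX71 (AT5G64120), a secreted peroxidase gene, by 1.31 ± 0.16, and UND (AT4G12920), an aspartyl protease gene known from the tapetum, by 1.49 ± 0.06. AZG1 (AT3G10960), a purine transporter gene, averaged 65.8 ± 1.6 CPM in ref6-3 and 26.7 ± 0.50 CPM in WT (1.297 ± 0.04), LHB1B1 (AT2G34430), of the light-harvesting complex, averaged 73.2 ± 4.1 CPM in ref6-3 and 28.7 ± 3.4 CPM in WT (1.34 ± 0.06), and LSH10 (AT2G42610), of the LSH family of nuclear proteins, 7.57 ± 0.28 CPM in ref6-3 and 2.97 ± 0.13 CPM in WT (1.35 ± 0.10). The rest of the 15 were AT5G24240, described as a phosphatidylinositol kinase and ubiquitin family gene (1.62 ± 0.05), AT2G01540 with a lipid-binding domain (1.37 ± 0.06), AT2G13550 without a description (1.66 ± 0.08), and the RNA genes AT3G29644 (1.96 ± 0.11) and AT4G13495 (1.44 ± 0.05). In ref6C the means were 7.25 CPM for EXLB1, 24.4 CPM for AZG1, 18.5 CPM for LHB1B1 and 6.26 CPM for LSH10.

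The lower end held deeper changes. DAF1 (AT3G62230), named DUO1-activated F-box 1 in RefSeq after the sperm cell regulator DUO1, had 0.677, 0.484 and 0.383 CPM in ref6-3 and 13.9, 14.5 and 14.03 CPM in WT (-4.77 ± 0.13, adjusted p = 1.0e-21). MAF5 (AT5G65080), a MADS-box relative of the flowering repressor FLC, had 0.639, 0.587 and 0.881 CPM in ref6-3 and 7.78, 7.51 and 8.34 CPM in WT (-3.48 ± 0.15). QQS (AT3G30720), an orphan gene that affects starch content, had 5.56, 6.05 and 5.79 CPM in ref6-3 and 41.6, 39.98 and 44.3 CPM in WT (-2.85 ± 0.06). These genes come from the same ranking, so their ref6-3 and WT libraries do not overlap by selection. The means of the 2 ref6C libraries were 2.87 CPM for DAF1, 19.1 CPM for MAF5 and 63.4 CPM for QQS. TPS14 (AT1G61680), a terpene synthase gene, averaged 1.64 ± 0.15 CPM in ref6-3 and 12.9 ± 0.92 CPM in WT (-2.97 ± 0.11), MIOX1 (AT1G14520), which oxidises myo-inositol, 2.88 ± 0.21 CPM in ref6-3 and 19.5 ± 0.81 CPM in WT (-2.76 ± 0.08), and EXPA11 (AT1G20190), an expansin that loosens walls, 0.845 ± 0.019 CPM in ref6-3 and 5.78 ± 0.42 CPM in WT (-2.76 ± 0.14). The rest of the 15 were VGDH1 (AT2G47030) (-2.93 ± 0.08), a pectin methylesterase relative, GH9B15 (AT4G23560) (-2.898 ± 0.17), a cellulase family gene, the subtilase genes AT4G21630 (-2.999 ± 0.18) and SBT4.13 (AT5G59120) (-2.71 ± 0.12), the peroxidase gene AT5G47000 (-2.82 ± 0.13), the DUF1216 genes AT3G28770 (-4.32 ± 0.11) and AT3G28820 (-2.74 ± 0.09), and AT2G27402 (-2.79 ± 0.11) and AT3G22275 (-2.71 ± 0.15), which have no description. Of these 15, 3 overlap a gene on the other strand, as do 5 of the 15 at the upper end.

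REF6 is known to bind an 8-base motif, here searched in its 4 spellings CTCTGCTC, CTCTGCTT, CTCTGTTC and CTCTGTTT on both strands, from 250 bases before to 50 bases after each annotated gene start. It was found in 109 of 1139 genes that fell 2-fold or more (9.57%), in 12 of 164 that rose 2-fold or more (7.32%) and in 1778 of 22503 tested genes with a position (7.90%). Among the 30 genes at both ends of the ranking, EXPA11 held it within the bases before its start, at chr1:6999904-7000023 on the minus strand of TAIR10.1 (RefSeq sequence). That stretch is shown because it is the one among those genes with a match, which is in capitals and spells CTCTGTTT on the other strand.
EXPA11 upstream: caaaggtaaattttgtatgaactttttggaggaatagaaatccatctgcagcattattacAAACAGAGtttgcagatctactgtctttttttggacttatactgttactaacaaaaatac
A match of these letters is a description and not a binding site.

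Of 19 tested microRNA precursor loci 3 were called (15.8%, beside 35.5% of all tested genes called in either direction), all higher in ref6-3, and 16 were not called. That share is no larger than the background, so the loci are given one by one. The mature sequences of the 3 are shown with bases 2 to 8, the seed, in capitals; they were read at RefSeq coordinates on TAIR10.1 (chr1:11137556-11137577 plus strand, chr1:25279138-25279158 minus strand and chr4:7845756-7845777 plus strand).
miR167d: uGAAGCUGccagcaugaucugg
miR839-5p: uACCAACCuuucaucguuccc
miR850: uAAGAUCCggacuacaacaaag
The 3 seeds differ. The MIR167d locus (AT1G31173) had 3.16, 3.25 and 3.07 CPM in ref6-3 and 1.58, 1.57 and 1.59 CPM in WT (0.997 ± 0.14, adjusted p = 1.2e-06). The miR167 family is known to guide cleavage of the auxin response factor transcripts ARF6 and ARF8. ARF6 (AT1G30330) had 387, 369 and 396 CPM in ref6-3 and 336, 365 and 325 CPM in WT and rose slightly (0.17 ± 0.03, adjusted p = 3.3e-04). ARF8 (AT5G37020) was not called (0.01 ± 0.03, adjusted p = 0.75). MIR839 (AT1G67481) averaged 5.42 ± 0.50 CPM in ref6-3 and 3.59 ± 0.61 CPM in WT (0.60 ± 0.12, adjusted p = 1.9e-04). MIR850 (AT4G13493) was sparse, with 0.338, 0.346 and 0.4599 CPM in ref6-3 and 0.101, 0.0582 and 0.0362 CPM in WT (2.46 ± 0.52, adjusted p = 4.1e-04), and its annotated span lies inside that of AT4G13495, an RNA gene of the same strand that rose as well (26.5, 27.4 and 26.6 CPM in ref6-3 and 10.4, 9.32 and 10.1 CPM in WT). Reads of that pair may be shared. These libraries were made from total RNA with no small RNA selection named, so the values are of precursor loci and not of mature microRNAs.

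Genes of cell proliferation were slightly higher in ref6-3. Of 46 cell cycle and DNA replication genes 29 rose, 1 fell and 16 were not called, with a median log2 fold change of 0.11 beside 0.01 over all genes. TSO2 (AT3G27060), a small subunit of ribonucleotide reductase, the enzyme that makes deoxyribonucleotides, had 151, 145 and 146 CPM in ref6-3 and 119, 118 and 116 CPM in WT (0.32 ± 0.03, adjusted p = 8.1e-10). The syntaxin KNOLLE (AT1G08560), which builds the cell plate, rose by 0.24 ± 0.03 (adjusted p = 6.3e-08) and the cyclin CYCA1;1 (AT1G44110) by 0.26 ± 0.04. The single fall was of another small subunit gene of the same enzyme, RNR2A (AT3G23580), with 26.3, 26.8 and 27.5 CPM in ref6-3 and 61.8, 59.98 and 63.6 CPM in WT (-1.201 ± 0.04, adjusted p = 3.9e-20). RNR2A was the one member of the list past 2-fold in either direction. Leaving out each library in turn and the other settings gave 20 to 30 higher members and 1 lower.

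Histone genes rose as well. Of 28 core and linker histone genes 20 rose and 1 fell (median 0.18). Histone H3.1 encoded by HTR2 (AT1G09200) had 268, 242 and 257 CPM in ref6-3 and 197, 177 and 175 CPM in WT (0.48 ± 0.05, adjusted p = 6.7e-09), HTR1 (AT5G65360), another H3.1 gene, rose by 0.22 ± 0.03, the linker histone gene H1.1 (AT1G06760) by 0.26 ± 0.04, and HTA10 (AT1G51060), an H2A gene, by 0.24 ± 0.03. Genes of near-identical sequence such as those for H3.1 may share reads. Ribosomal protein genes, a group drawn up by description after the values were seen, showed the same lean in small steps: 186 of 358 rose, 8 fell and 164 were not called, with a median of 0.09. AT4G17390, of the L15e family, averaged 371 ± 9.3 CPM in ref6-3 and 301 ± 13 CPM in WT (0.30 ± 0.03), and AT1G01100, an acidic ribosomal protein, 364 ± 4.5 CPM in ref6-3 and 273 ± 23 CPM in WT (0.41 ± 0.05). The largest fall was of AT5G39850, described as ribosomal protein S4, at 8.32 ± 0.043 CPM in ref6-3 and 25.8 ± 2.3 CPM in WT (-1.63 ± 0.07). Without ref6-3 replicate 2 the higher count was 123, and the lower count was 4 without ref6-3 replicate 1 or by DESeq2 and 5 without ref6-3 replicate 3.

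Several lists of developmental regulators held more rises than falls. Of 37 SPL and TCP genes, which time maturation and organ growth, 16 rose and 2 fell (median 0.15, or 0.09 without WT replicate 3). SPL8 (AT1G02065), which acts in early anther development, had 83.2, 74.6 and 82.1 CPM in ref6-3 and 51.9, 51.7 and 44.8 CPM in WT (0.69 ± 0.05, adjusted p = 2.4e-11), TCP15 (AT1G69690) averaged 95.5 ± 1.3 CPM in ref6-3 and 74.8 ± 3.6 CPM in WT (0.35 ± 0.03) and TCP8 (AT1G58100) 34.3 ± 1.7 CPM in ref6-3 and 26.8 ± 0.65 CPM in WT (0.35 ± 0.04). Of 19 shoot and floral meristem markers 12 rose and 2 fell (median 0.29). Their summed level was 511 to 520 CPM in ref6-3 libraries and 440 to 461 CPM in WT libraries. Among 197 families of at least 15 tested genes, the homeobox genes, transcription factors of which many act in meristems and organ boundaries, had the highest median (0.21): 17 of 30 rose and 2 fell. AtHB23 (AT1G26960), one of the 2, fell to 9.22 ± 0.31 CPM in ref6-3, against 16.3 ± 0.56 CPM in WT (-0.82 ± 0.07). Of 26 petal and MIKC-type MADS genes 12 rose and 5 fell (median 0.13). AGL18 (AT3G57390), a MADS gene known from pollen and as a flowering repressor, had 9.92, 9.296 and 8.58 CPM in ref6-3 and 23.3, 23.2 and 24.7 CPM in WT (-1.35 ± 0.06, adjusted p = 2.2e-16). SOC1 (AT2G45660), which promotes flowering, averaged 55.3 ± 1.5 CPM in ref6-3 and 44.5 ± 1.3 CPM in WT (0.31 ± 0.04), and SEP4 (AT2G03710), a floral organ identity gene, 24.3 ± 1.1 CPM in ref6-3 and 18.8 ± 0.63 CPM in WT (0.37 ± 0.05). In whole buds, a change in the share of a cell type and a change in RNA per cell cannot be told apart, here and in the groups that follow. The part of the meristem marker level in these rises was not tested.

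**Figure D2:**
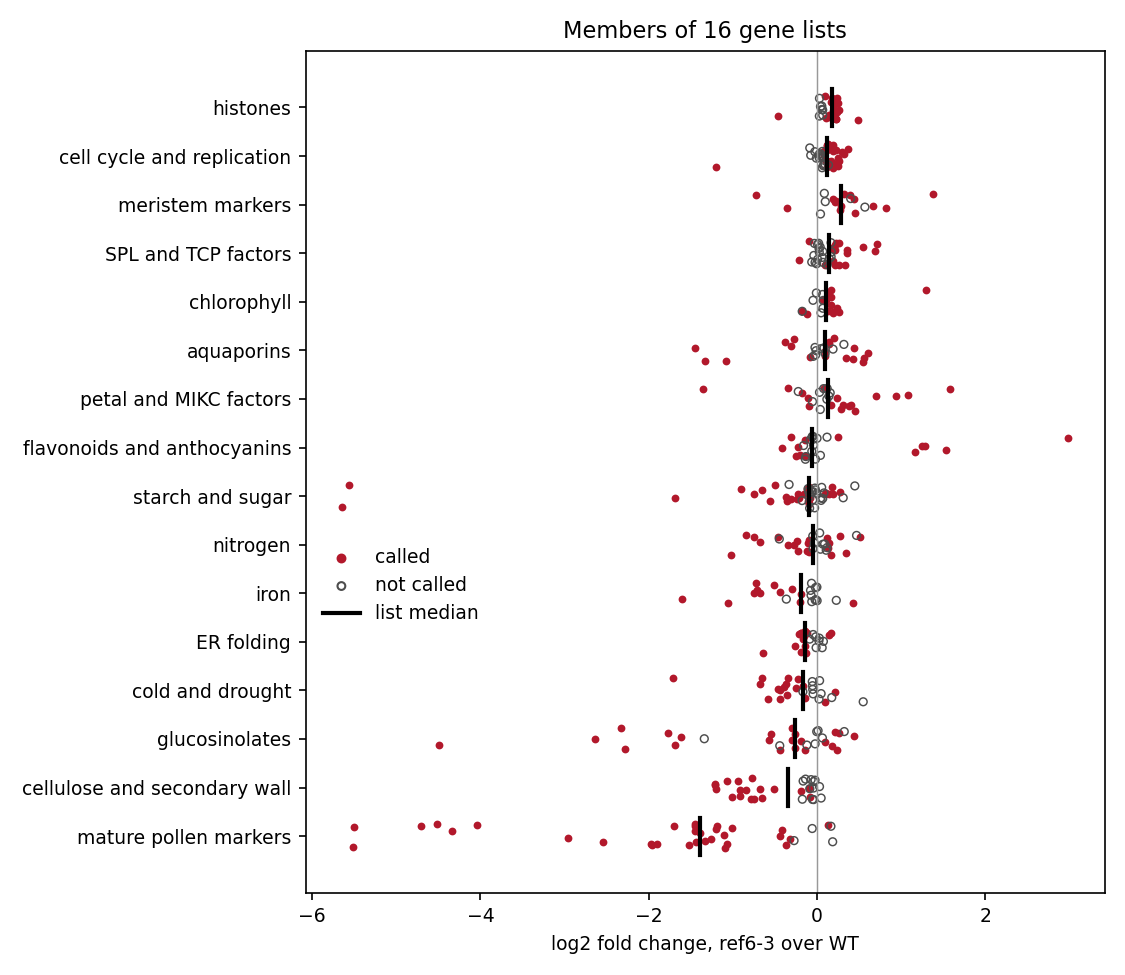
Log2 fold change of ref6-3 over WT (x axis) for every tested member of 16 gene lists (rows), with called members as filled points, other members as open points, and the list median as a bar. Histone, cell cycle, meristem and SPL and TCP members lie mostly right of 0, and secondary wall, glucosinolate, cold and drought and ER folding members mostly left of 0.

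Secondary cell wall genes fell together in ref6-3. Of 30 cellulose and secondary wall genes 18 fell, 0 rose and 12 were not called, with a median of -0.35, and 5 fell 2-fold or more. Genes of secondary wall cellulose were lower in every mutant library: CESA4 (AT5G44030) had 29.5, 28.1 and 27.9 CPM in ref6-3 and 55.5, 55.9 and 52.2 CPM in WT (-0.94 ± 0.04, adjusted p = 1.7e-17). Its partner subunits fell too: IRX1 (AT4G18780), also called CESA8, averaged 17.2 ± 0.26 CPM in ref6-3 and 30.8 ± 0.997 CPM in WT (-0.84 ± 0.04). IRX3 (AT5G17420), also called CESA7, averaged 15.3 ± 0.89 CPM in ref6-3 and 25.7 ± 1.8 CPM in WT (-0.75 ± 0.06). By contrast the subunits of the primary wall lay close to 0, with CESA1 at -0.04 ± 0.03, CESA6 at -0.04 ± 0.03 and CESA3 (AT5G05170) at -0.09 ± 0.03. CESA3 was called, but not without ref6-3 replicate 1 (adjusted p = 0.057) or WT replicate 2 (adjusted p = 0.097).

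Members of the list that act on xylan were found among the falls and among the genes not called. GUX1 (AT3G18660), which adds glucuronic acid to xylan, had 5.15, 5.25 and 5.52 CPM in ref6-3 and 12.1, 12.8 and 11.7 CPM in WT (-1.202 ± 0.08, adjusted p = 3.4e-12). TBL29 (AT3G55990), a xylan acetyltransferase, averaged 18.7 ± 0.15 CPM in ref6-3 and 32.2 ± 1.4 CPM in WT (-0.79 ± 0.05), IRX8 (AT5G54690) 3.56 ± 0.49 CPM in ref6-3 and 8.31 ± 0.43 CPM in WT (-1.21 ± 0.10) and FRA8 (AT2G28110) 1.52 ± 0.24 CPM in ref6-3 and 3.48 ± 0.20 CPM in WT (-1.21 ± 0.14). IRX14 (AT4G36890) (-0.09 ± 0.04) and PARVUS (AT1G19300, -0.17 ± 0.09), also of xylan synthesis, were not called, except without ref6-3 replicate 1 (adjusted p = 0.043 and 0.047). The regulator MYB46 (AT5G12870), a switch for secondary wall formation, averaged 2.04 ± 0.12 CPM in ref6-3 and 3.84 ± 0.094 CPM in WT (-0.91 ± 0.13, adjusted p = 1.7e-06), and NST2 (AT3G61910), a NAC switch known from anther endothecium, 1.04 ± 0.21 CPM in ref6-3 and 2.16 ± 0.21 CPM in WT (-1.07 ± 0.18). Of 17 lignin and phenylpropanoid genes 7 fell and 3 rose. Laccases polymerise lignin. LAC4 (AT2G38080) averaged 28.4 ± 3.2 CPM in ref6-3 and 52.96 ± 3.0 CPM in WT (-0.90 ± 0.05). LAC17 (AT5G60020) averaged 25.9 ± 0.88 CPM in ref6-3 and 48.8 ± 3.3 CPM in WT (-0.92 ± 0.05), while FAH1 (AT4G36220), a hydroxylase of lignin precursors, rose by 0.33 ± 0.04. Xylem was checked through its markers: 6 of 17 fell, but 4 of these are in the wall list. Of the 11 others 2 fell (BFN1 (AT1G11190), -0.87 ± 0.07, and RNS3 (AT1G26820), -0.53 ± 0.07, both nucleases), 0 rose and 9, among them the vessel proteases XCP1 (0.10 ± 0.06) and XCP2 (0.01 ± 0.04), were not called. The summed level of those 11 was 138 to 144 CPM in ref6-3 libraries and 143 to 152 CPM in WT libraries, so the ranges overlap. For the wall list, ref6-3 lay below ref6C in 15 members and above it in 0 (13.8% and 15.7% of all tested genes were called in these directions), and with ref6C replicate 3 in the fit 16 and 0.

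**Figure D3:**
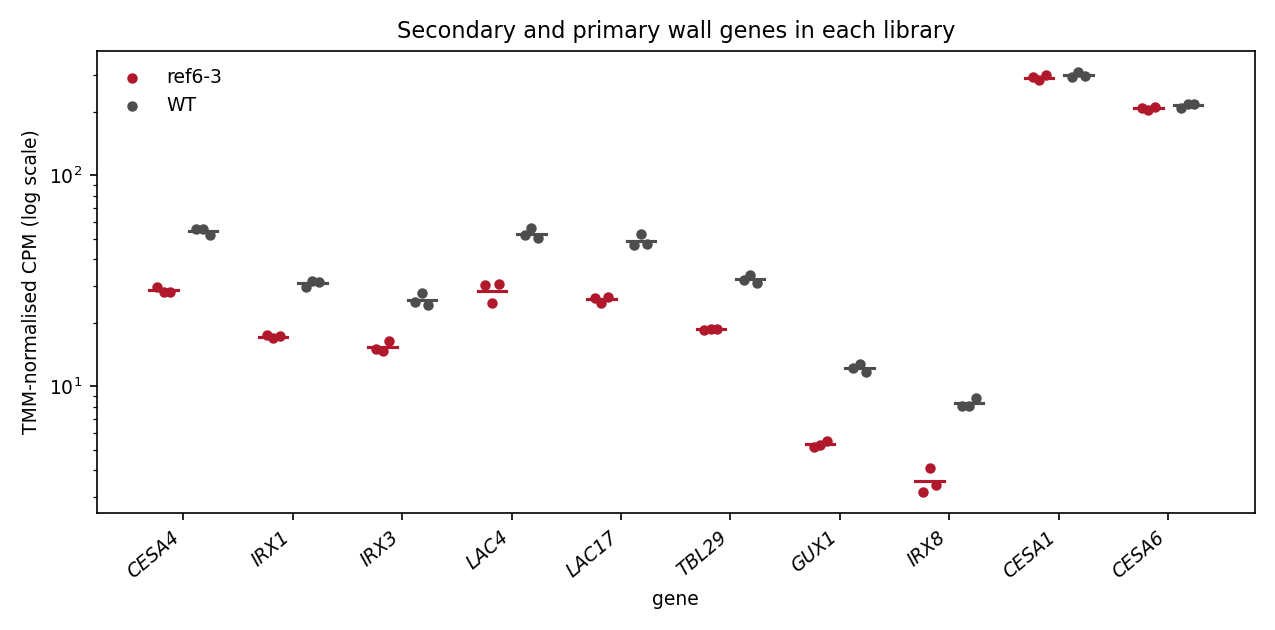
Level of 10 genes in each library (y axis, TMM-normalised CPM, log scale), with ref6-3 libraries left and WT libraries right for each gene, bars at the group means. The 8 secondary wall and lignin genes lie lower in ref6-3 in all 3 libraries, while the primary wall genes CESA1 and CESA6 lie at like levels.

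Flavonoid and anthocyanin genes went both ways. Of 26 flavonoid and anthocyanin genes 6 rose, 5 of them 2-fold or more, 7 fell by less than 2-fold and 13 were not called. The groups of late and early genes below were not lists of their own; several of their members were chosen after their values were seen. DFR (AT5G42800), the first enzyme committed to anthocyanin, had 1.17, 0.864 and 1.19 CPM in ref6-3 and 0.101, 0.146 and 0.145 CPM in WT (2.99 ± 0.33, adjusted p = 2.6e-08). LDOX (AT4G22880), the next enzyme, had 2.22, 2.32 and 1.99 CPM in ref6-3 and 0.805, 1.08 and 1.01 CPM in WT (1.17 ± 0.17, adjusted p = 2.9e-06). The levels were low, yet the groups did not overlap in either gene. The MYB activators of these genes rose too: PAP1 (AT1G56650) had 2.33, 1.52 and 1.69 CPM in ref6-3 and 0.637, 0.844 and 0.834 CPM in WT (1.24 ± 0.20, adjusted p = 1.2e-05), and its relative PAP2 (AT1G66390) averaged 1.94 ± 0.25 CPM in ref6-3 and 0.668 ± 0.050 CPM in WT (1.53 ± 0.20, adjusted p = 5.4e-07). UF3GT (AT5G54060), a glycosyltransferase of anthocyanins, averaged 0.829 ± 0.13 CPM in ref6-3 and 0.344 ± 0.14 CPM in WT (1.29 ± 0.31). Partners of those MYB factors, TT8, GL3, EGL3 and TTG1, were not called (log2 fold changes of 0.04 ± 0.25, -0.04 ± 0.27, 0.12 ± 0.05 and -0.00 ± 0.04), though EGL3 was without WT replicate 2 (adjusted p = 0.042). Among the earlier steps MYB111 (AT5G49330), an activator of flavonol synthesis, had 31.9, 29.9 and 30.3 CPM in ref6-3 and 39.5, 40.7 and 43.2 CPM in WT (-0.42 ± 0.04, adjusted p = 3.8e-09), and F3H (AT3G51240) (-0.22 ± 0.03), TT7 (AT5G07990, -0.24 ± 0.03), 4CL3 (AT1G65060) (-0.31 ± 0.03) and PAL1 (AT2G37040) (-0.20 ± 0.03) fell, while the chalcone synthase gene TT4 was not called (-0.06 ± 0.04) except without WT replicate 3 (adjusted p = 0.0049).

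**Figure D4:**
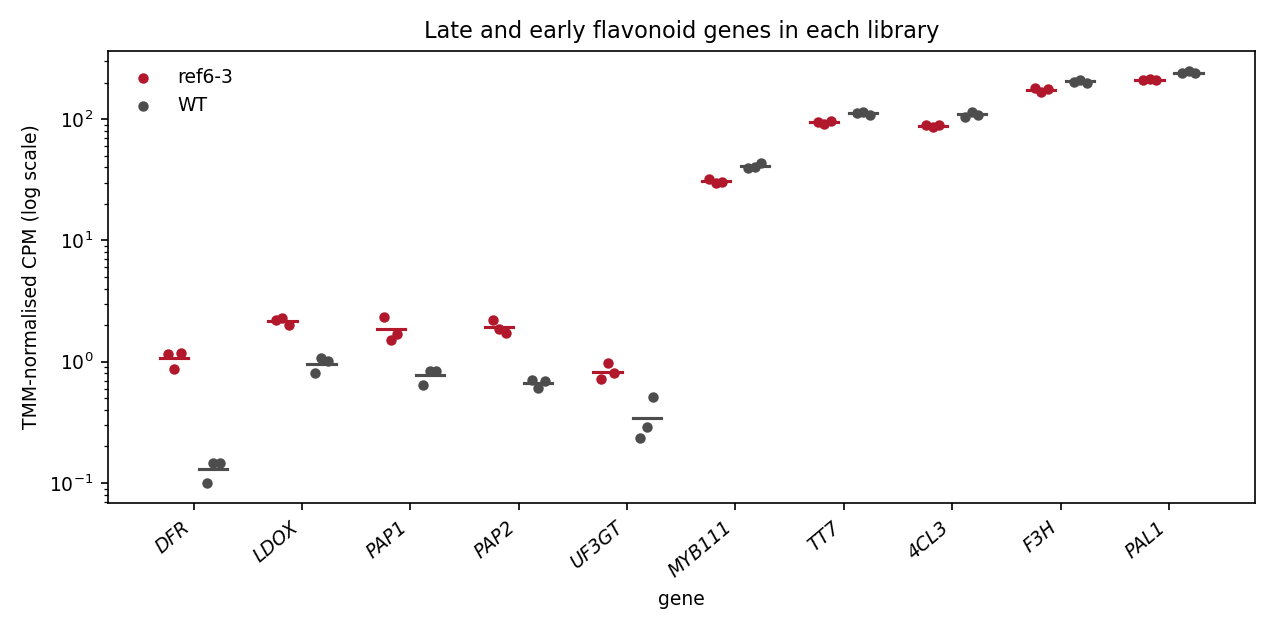
Level of 10 flavonoid genes in each library (y axis, TMM-normalised CPM, log scale), with ref6-3 libraries left and WT libraries right for each gene, bars at the group means. The 5 late genes and activators on the left lie between 0.101 and 2.33 CPM and higher in every ref6-3 library, and the 5 early genes on the right lie between 29.9 and 248 CPM and slightly lower in ref6-3.

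Glucosinolate genes fell more often than they rose. Glucosinolates are defence compounds of the cabbage family, built from methionine or tryptophan and cleaved by myrosinases. Of 30 genes 16 fell, 7 of them 2-fold or more, 6 rose and 8 were not called (median -0.27). The 7 deep falls included genes of the aliphatic branch, which was not counted apart. MAM1 (AT5G23010), which elongates the methionine chain, had 0.451, 0.587 and 0.498 CPM in ref6-3 and 2.72, 2.24 and 2.65 CPM in WT (-2.28 ± 0.20, adjusted p = 2.9e-10). IMD1 (AT5G14200), of the same elongation cycle, averaged 1.35 ± 0.094 CPM in ref6-3 and 4.36 ± 0.30 CPM in WT (-1.69 ± 0.13). IPMI1 (AT3G58990), of that cycle too, averaged 0.397 ± 0.14 CPM in ref6-3 and 1.98 ± 0.18 CPM in WT (-2.32 ± 0.23). CYP79F1 (AT1G16410), the entry enzyme of the aliphatic core pathway, was sparse, with 0.0376, 0 and 0.0766 CPM in ref6-3 and 0.939, 0.815 and 1.01 CPM in WT (-4.49 ± 0.46, adjusted p = 6.3e-09). None of these genes overlapped between groups, and all were below 5 CPM in WT. MYB28 (AT5G61420), the main activator of aliphatic glucosinolate genes, was not called (-0.00 ± 0.05). The myrosinase gene TGG1 (AT5G26000) fell by less, with 2334, 2309 and 2363 CPM in ref6-3 and 2754, 2862 and 2810.4 CPM in WT (-0.27 ± 0.02). It is known from guard cells and myrosin cells. Of 19 guard cell lineage markers 5 rose (3 without WT replicate 1 or by DESeq2) and 3 fell, with a median of 0.05. Their summed level was 357 to 361 CPM in ref6-3 libraries and 376 to 392 CPM in WT libraries. That sum includes 2 potassium channel genes that fell. KAT2 (AT4G18290) averaged 13.7 ± 0.91 CPM in ref6-3 and 23.4 ± 0.84 CPM in WT (-0.78 ± 0.07). KAT1 (AT5G46240) had 11.2, 9.61 and 10.96 CPM in ref6-3 and 29.8, 32.6 and 29.6 CPM in WT (-1.54 ± 0.06). The part of that marker level in the falls was not tested.

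Genes of cold and drought response were lower. Of 27 genes 15 fell, 2 rose and 10 were not called (median -0.17). RD29A (AT5G52310), a reporter gene of cold, drought and abscisic acid signals, had 109, 109.7 and 113 CPM in ref6-3 and 351, 369 and 369 CPM in WT (-1.71 ± 0.03, adjusted p = 6.0e-26). COR47 (AT1G20440) averaged 91.97 ± 0.50 CPM in ref6-3 and 144 ± 4.9 CPM in WT (-0.65 ± 0.03) and COR15B (AT2G42530) 169 ± 2.5 CPM in ref6-3 and 232 ± 9.9 CPM in WT (-0.46 ± 0.03), both encoding proteins that protect cells on drying or freezing. RD29A was the one member that fell 2-fold or more. For this list ref6-3 lay below ref6C in 15 members and above it in 7 (13.8% and 15.7% of all tested genes were called in these directions). The abscisic acid list itself went both ways, 9 higher (5 by DESeq2) and 5 lower of 35 (40% called, beside 35.5% of all tested genes). CYP707A3 (AT5G45340), which breaks abscisic acid down, averaged 4.98 ± 0.070 CPM in ref6-3 and 10.4 ± 0.92 CPM in WT (-1.06 ± 0.09). CYP707A1 (AT4G19230), of the same step, averaged 25.1 ± 1.2 CPM in ref6-3 and 35.5 ± 0.76 CPM in WT (-0.50 ± 0.05), and ABF3 (AT4G34000), a factor that binds its response element, rose by 0.25 ± 0.04.

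Chaperones of the endoplasmic reticulum fell more often than they rose, mostly by small steps. Of 24 genes 14 fell, 2 rose and 8 were not called (median -0.14), and across the other settings 13 to 14 fell and 2 rose. BIP2 (AT5G42020), the main chaperone of that compartment, had 399, 379.7 and 385 CPM in ref6-3 and 455, 479 and 465 CPM in WT (-0.27 ± 0.03, adjusted p = 3.5e-09). BIP1 (AT5G28540) averaged 477 ± 8.0 CPM in ref6-3 and 537 ± 8.4 CPM in WT (-0.17 ± 0.03) and CNX1 (AT5G61790), a calnexin, 351 ± 7.4 CPM in ref6-3 and 393 ± 7.6 CPM in WT (-0.16 ± 0.03). The tapetum, a secretory tissue of the anther, was checked beside it: 8 of 20 markers fell and 5 rose (3 without ref6-3 replicate 1 or 2 or WT replicate 3). The median of these markers was -0.03, and 0 changed 2-fold or more. Their summed level, in which abundant members weigh most, was 5506 to 5622 CPM in ref6-3 libraries and 6415 to 6669 CPM in WT libraries. Mature pollen markers summed to 523 to 541 CPM in ref6-3 libraries and 1211 to 1267 CPM in WT libraries, and 30 of 35 fell. The part of either in the falls of these chaperones was not tested.

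Nutrient genes were lower in several lists. Of 23 iron genes 11 fell and 1 rose (median -0.19, or -0.12 without WT replicate 3 and -0.09 with 6 libraries in the fit or the 1 CPM filter): FRO6 (AT5G49730), a leaf iron reductase, averaged 46.2 ± 1.3 CPM in ref6-3 and 62.5 ± 0.93 CPM in WT (-0.44 ± 0.03), IRT1 (AT4G19690), the main iron importer, 7.33 ± 0.69 CPM in ref6-3 and 11.7 ± 0.35 CPM in WT (-0.67 ± 0.08), and OPT3 (AT4G16370), which loads iron into phloem, rose to 60.8 ± 1.7 CPM in ref6-3, against 45.1 ± 2.0 CPM in WT (0.43 ± 0.04, adjusted p = 2.9e-10). The count of lower iron genes was 7 without ref6-3 replicate 3 and 7 by DESeq2. Of 25 phosphate and sulfur starvation genes 10 fell and 3 rose (median -0.10, or -0.07 without WT replicate 2 and -0.06 with the 1 CPM filter), among them PAP17 (AT3G17790), a purple acid phosphatase induced by phosphate starvation (20.5 ± 0.52 CPM in ref6-3 and 30.97 ± 1.5 CPM in WT, -0.59 ± 0.05), and LSU4 (AT5G24655) (0.358 ± 0.074 CPM in ref6-3 and 1.48 ± 0.19 CPM in WT, -2.05 ± 0.29), whose relatives respond to sulfur starvation. Of 31 nitrogen genes 13 fell and 7 rose (4 by DESeq2). ASN1 (AT3G47340), an asparagine synthetase known for induction in darkness, had 58.6, 54.3 and 54.6 CPM in ref6-3 and 112, 116 and 113 CPM in WT (-1.03 ± 0.03, adjusted p = 2.7e-20). The glutamine synthetase genes went opposite ways, GLN1;2 (AT1G66200) at 204 ± 5.0 CPM in ref6-3 and 282 ± 6.1 CPM in WT (-0.46 ± 0.03) and GLN1;1 (AT5G37600) at 160.4 ± 3.8 CPM in ref6-3 and 126 ± 1.2 CPM in WT (0.35 ± 0.03). The amino acid carriers LHT2 (AT1G24400) (-0.84 ± 0.04) and AAP2 (AT5G09220) (-0.75 ± 0.05) fell.

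In sugar metabolism 21 of 47 genes fell and 6 rose (median -0.09). CWINV2 (AT3G52600), a cell wall invertase that splits sucrose outside cells, had 0.0752, 0.0691 and 0.192 CPM in ref6-3 and 5.43, 5.79 and 5.001 CPM in WT (-5.57 ± 0.27, adjusted p = 1.0e-15). CWINV4 (AT2G36190), the invertase needed for nectar, had 27.97, 28.6 and 27.98 CPM in ref6-3 and 51.02, 54.1 and 52.7 CPM in WT (-0.90 ± 0.05, adjusted p = 1.7e-15). SWEET9, the nectary sugar exporter (AT2G39060), had 1 count in the 3 ref6-3 libraries together and 76 counts in WT libraries, a ratio of 0.0148 with an exact 95% counting interval of 0.0003696 to 0.0849. Of 9 nectary markers 4 fell (2 to 5 in the other settings: 2 with the 1 CPM filter). Another 2 rose (1 in each of the 13 other settings). The list median was -0.06 (-0.09 to 0.07 in the other settings). The carpel and nectary factor CRC (AT1G69180) rose (47.5 ± 0.13 CPM in ref6-3 and 39.6 ± 0.69 CPM in WT, 0.26 ± 0.03). The summed level of the list was 331 to 342 CPM in ref6-3 libraries and 350 to 375 CPM in WT libraries. That sum includes CWINV4, which averaged 28.2 ± 0.35 CPM in ref6-3 and 52.6 ± 1.6 CPM in WT. SWEET1 (AT1G21460) (-0.56 ± 0.04) and the sucrose synthase gene SUS1 (AT5G20830) (-0.37 ± 0.03) fell as well, as did SWEET5 (AT5G62850), known from pollen as VEX1 (-1.68 ± 0.07).

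Chlorophyll genes rose more often than they fell, mostly by small amounts. Of 23 genes of chlorophyll synthesis and breakdown 14 rose and 2 fell (median 0.10). PORA (AT5G54190), a protochlorophyllide reductase, had 7.37, 6.25 and 7.24 CPM in ref6-3 and 2.78, 2.85 and 2.86 CPM in WT (1.29 ± 0.11, adjusted p = 1.5e-10), CHLM (AT4G25080) averaged 144 ± 3.8 CPM in ref6-3 and 122 ± 0.61 CPM in WT (0.23 ± 0.03) and PORB (AT4G27440) 661 ± 11 CPM in ref6-3 and 588 ± 5.0 CPM in WT (0.17 ± 0.02), while NYC1 (AT4G13250), which degrades chlorophyll b, fell (-0.18 ± 0.03). Of 18 Calvin cycle genes 5 rose (3 without WT replicate 3) and 2 fell. Their median was 0.03, and 38.9% were called, near the 35.5% of all tested genes. Aquaporins went both ways: 11 of 27 rose and 7 fell. TIP1;2 (AT3G26520, 551 ± 31 CPM in ref6-3 and 378 ± 32 CPM in WT, 0.54 ± 0.05) of the vacuole membrane, and the boron channel NIP5;1 (AT4G10380) (23.997 ± 0.49 CPM in ref6-3 and 15.7 ± 0.84 CPM in WT, 0.61 ± 0.05) rose. The 3 that fell 2-fold or more, TIP1;3 (AT4G01470) (-1.45 ± 0.11), TIP5;1 (AT3G47440) (-1.34 ± 0.12) and NIP4;1 (AT5G37810) (-1.08 ± 0.09), are known from pollen, and 2 of them are in the pollen marker list. Actin and tubulin genes went both ways too: of 35, 12 fell, 5 of them 2-fold or more, and 6 rose, with the pollen actin gene ACT4 (AT5G59370) at 8.34 ± 0.70 CPM in ref6-3 and 20.4 ± 1.4 CPM in WT (-1.29 ± 0.07) and ACT3 (AT3G53750), likewise known from pollen, at 94.5 ± 1.4 CPM in ref6-3 and 116 ± 3.4 CPM in WT (-0.29 ± 0.03).

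Hormone lists held called genes in both directions. The share called was 53.8% for gibberellin, 42.5% for cytokinin, 34.8% for ethylene and 44.2% for auxin, beside 35.5% of all tested genes. The ethylene share is no larger than that background. Of all tested genes 18.2% were called higher and 17.4% lower. In gibberellin metabolism 7 of 26 genes rose and 7 fell. GA2OX1 (AT1G78440), which inactivates gibberellin, had 5.86, 6.25 and 6.74 CPM in ref6-3 and 20.13, 20.5 and 20.7 CPM in WT (-1.701 ± 0.07, adjusted p = 1.7e-17), GA20OX2 (AT5G51810), of its synthesis, averaged 3.44 ± 0.31 CPM in ref6-3 and 8.896 ± 0.62 CPM in WT (-1.38 ± 0.09), and GA3OX1 (AT1G15550), of the last step, rose to 3.82 ± 0.48 CPM in ref6-3, against 1.905 ± 0.36 CPM in WT (1.01 ± 0.15). A gene of synthesis thus stood on either side. Of 40 cytokinin genes 12 rose (7 without ref6-3 replicate 2 and 6 by DESeq2) and 5 fell. LOG5 (AT4G35190), which activates cytokinin, fell (23.7 ± 0.78 CPM in ref6-3 and 35.6 ± 0.62 CPM in WT, -0.59 ± 0.04), and the response regulators ARR2 (AT4G16110, 0.32 ± 0.05) and ARR4 (AT1G10470) (0.30 ± 0.05) rose. Of 23 ethylene genes 5 rose (3 without ref6-3 replicate 1 or 2 or by DESeq2) and 3 fell; the receptor gene ETR2 (AT3G23150) averaged 10.8 ± 0.25 CPM in ref6-3 and 6.45 ± 0.30 CPM in WT (0.75 ± 0.08, adjusted p = 7.5e-09). Of 43 auxin response genes 9 rose (5 by DESeq2) and 10 fell, with GH3.5 (AT4G27260), which conjugates auxin, at -0.39 ± 0.04 and IAA27 (AT4G29080), a repressor, at 0.27 ± 0.03.

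Other lists were mixed or close to the background. DNA methylation and small RNA silencing had 9 higher (5 without ref6-3 replicate 2, 4 by DESeq2) and 2 lower of 42; AGO9 (AT5G21150), an argonaute of ovules, had 126, 126 and 127 CPM in ref6-3 and 198, 205 and 197 CPM in WT (-0.66 ± 0.03, adjusted p = 5.2e-17) and VIM1 (AT1G57820), which maintains DNA methylation, rose by 0.30 ± 0.03. Cuticle and wax genes had 5 higher and 7 lower of 35 (4 lower without WT replicate 2), with the wax gene CER3 (AT5G57800) at -0.25 ± 0.03. Oxidative stress enzymes had 5 higher and 6 lower of 34; FSD1 (AT4G25100), an iron superoxide dismutase, averaged 1.55 ± 0.27 CPM in ref6-3 and 0.5304 ± 0.11 CPM in WT (1.56 ± 0.25) and CAT3 (AT1G20620), a catalase, 1495 ± 25 CPM in ref6-3 and 1223 ± 42 CPM in WT (0.29 ± 0.03). NAC factors had 3 higher and 7 lower of 19, with NAC019 (AT1G52890) at -0.63 ± 0.07 and the boundary gene CUC3 (AT1G76420) at 0.44 ± 0.08. Signalling peptides had 8 higher (5 by DESeq2) and 3 lower of 32, with the phytosulfokine precursor gene PSK2 (AT2G22860) at 0.0987 ± 0.045 CPM in ref6-3 and 0.971 ± 0.32 CPM in WT (-3.28 ± 0.46).

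Markers of other tissues were checked as well. The share called was 71.4% for ovule, 46.7% for stigma, style and transmitting tract, 37.5% for trichome and 33.3% for phloem. It was 83.3% for petals and late filaments, 25% for embryo sac and 44.4% for seed and embryo, beside 35.5% of all tested genes. The phloem and embryo sac shares are no larger than that background, and the trichome share is near it. Of 14 ovule markers 8 fell (5 by DESeq2) and 2 rose (median -0.23): STK (AT4G09960), an ovule identity gene, fell to 20.6 ± 1.2 CPM in ref6-3, against 26.1 ± 0.998 CPM in WT (-0.34 ± 0.05) and SHP1 (AT3G58780) to 27.8 ± 0.84 CPM in ref6-3, against 34.9 ± 0.68 CPM in WT (-0.33 ± 0.05), while KLU (AT1G13710), which promotes organ growth, rose to 59.1 ± 1.0 CPM in ref6-3, against 39.4 ± 1.6 CPM in WT (0.59 ± 0.04). Their summed level was 568 to 586 CPM in ref6-3 libraries and 560 to 570 CPM in WT libraries. Of 15 markers of stigma, style and transmitting tract 3 rose and 4 fell (228 to 233 CPM in ref6-3 and 226 to 232 CPM in WT). Of 16 trichome markers 5 rose and 1 fell (median 0.38; 3 rose without ref6-3 replicate 3, by DESeq2 or with 6 libraries in the fit), with GL2 (AT1G79840), a homeobox factor of hair fate, at 5.64 ± 0.63 CPM in ref6-3 and 3.69 ± 0.090 CPM in WT (0.61 ± 0.10) and GIS (AT3G58070) at 1.48 ± 0.11 CPM in ref6-3 and 0.822 ± 0.099 CPM in WT (0.84 ± 0.21); the sum was 139 to 143 CPM in ref6-3 and 137 to 140 CPM in WT. Of 18 phloem markers 2 rose and 4 fell (433 to 443 CPM in ref6-3 and 419 to 429 CPM in WT), the deepest being LLG3 (AT4G28280) (-1.97 ± 0.21), which is also known from pollen tubes. Of 12 markers of petals and late filaments 9 fell and 1 rose (172 to 175 CPM in ref6-3 and 272 to 281 CPM in WT), with the expansin EXPA8 (AT2G40610) at 10.1 ± 0.27 CPM in ref6-3 and 23.04 ± 0.40 CPM in WT (-1.19 ± 0.06) and the terpene synthase TPS03 (AT4G16740) at 5.71 ± 0.34 CPM in ref6-3 and 15.4 ± 0.69 CPM in WT (-1.43 ± 0.08). Of 14 matched embryo sac markers 4 passed the filter on low counts, 2 were at 0 in all 6 libraries and 1 fell, with a summed level of 36.2 to 37.0 CPM in ref6-3 and 40.8 to 43.0 CPM in WT. DD46 (AT1G22015), the one that fell, held most of that sum (32.3 ± 0.58 CPM in ref6-3 and 37.6 ± 0.92 CPM in WT, -0.22 ± 0.04). Of 26 seed and embryo markers 9 passed, 1 rose, 3 fell and 1 was at 0 throughout.

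Several of the families with the deepest median falls encode small secreted proteins or transporters. Of 18 tested low-molecular-weight cysteine-rich genes, defensin-like peptides, 15 fell, all of them 2-fold or more, and 3 rose (median -1.97, the lowest of 197 families). LCR72 (AT2G02140) had 0.414, 0.311 and 0.115 CPM in ref6-3 and 3.12, 2.77 and 2.899 CPM in WT (-3.36 ± 0.26). LCR11 had 0 counts in the 3 ref6-3 libraries and 125 in WT libraries, so it was at least 37.1-fold lower, with 3 counts over the group as the floor; such floors and intervals cover counting error only, and treat the deposited whole numbers as read counts; RSEM also gives estimated counts, and no source used here says if these were rounded. Of 16 RALF-like genes, peptides that signal through cell wall receptors, 10 fell, 9 of them 2-fold or more, and 0 rose (median -1.87); RALFL26 had 0 counts in ref6-3 libraries and 128 in WT libraries, at least 37.96-fold lower. Of 15 cation/H+ exchanger genes 10 fell and 0 rose (median -0.96), with CHX23 (AT1G05580) at 0.149 ± 0.044 CPM in ref6-3 and 4.19 ± 0.45 CPM in WT (-4.796 ± 0.26). Fitted values of sparse genes depend on the prior count of the fit. With genes at 0 counts set to their bounds, the medians of the cysteine-rich and RALF-like families were -1.97 and -1.87 as before. With a filter of 1 CPM in 3 libraries the RALF-like median was -1.16. Over all other settings the cysteine-rich median was -1.99 to -1.76, with 11 to 15 members lower. Members that failed the filter on low counts are not in these families. Members with 0 counts in ref6-3, such as LCR11 and RALFL26, passed it through other genotypes. The medians and ranks of these families therefore depend in part on the filter. The groups hold many pollen genes by common knowledge, and mature pollen markers fell beside them as given above; the part of these was not tested.

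Wall and signalling families were described for their share of 2-fold changes as much as for their medians. Of 66 invertase and pectin methylesterase inhibitor genes 37 fell, 31 of them 2-fold or more, and 7 rose (median -0.63, or -0.38 with a filter of 1 CPM). APPB1 (AT4G24640) had 3 counts in ref6-3 libraries and 410 in WT libraries, a ratio of 0.00822 (95% counting interval 0.00169 to 0.0242). Of 69 pectin lyase-like genes 31 fell and 8 rose (4 without WT replicate 3, 5 without ref6-3 or WT replicate 1 or by DESeq2), 15 falling 2-fold or more, with a median of -0.16 (-0.09 with the 1 CPM filter); AT5G48140 averaged 0.843 ± 0.13 CPM in ref6-3 and 15.1 ± 1.1 CPM in WT (-4.15 ± 0.14). The calcium-dependent protein kinase family had a median of 0.00, so it did not fall as a whole. Of its 27 genes 11 fell, 7 of them 2-fold or more, and 5 rose (3 without ref6-3 replicate 1 or WT replicate 1 or 3 or by DESeq2): CPK24 (AT2G31500) had 0.226, 0.104 and 0.192 CPM in ref6-3 and 6.27, 6.41 and 5.47 CPM in WT (-5.11 ± 0.23, adjusted p = 1.7e-16) and CPK17 (AT5G12180) averaged 0.342 ± 0.037 CPM in ref6-3 and 2.68 ± 0.29 CPM in WT (-2.96 ± 0.24). Of 27 cysteine-rich receptor-like kinase genes 10 fell and 3 rose (5 fell without ref6-3 replicate 2 or by DESeq2, and 6 without ref6-3 replicate 3 or WT replicate 2 or 3), with a median of -0.22 (-0.15 without WT replicate 2) and with CRK22 (AT4G23300) at 0.255 ± 0.088 CPM in ref6-3 and 1.88 ± 0.25 CPM in WT (-2.84 ± 0.28). Of 18 genes of the pollen Ole e 1 and extensin family 10 fell and 2 rose (median -0.11), and AT4G18596 averaged 0.344 ± 0.061 CPM in ref6-3 and 4.004 ± 0.55 CPM in WT (-3.52 ± 0.22).

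The next families had medians between -0.50 and -0.23. Of 24 purple acid phosphatase genes, which release phosphate, 14 fell and 3 rose (median -0.26), among them PAP14 (AT2G46880) at 6.003 ± 0.21 CPM in ref6-3 and 13.6 ± 0.76 CPM in WT (-1.18 ± 0.08) and PAP11 (AT2G18130) at 11.9 ± 0.38 CPM in ref6-3 and 22.1 ± 1.5 CPM in WT (-0.90 ± 0.06). Of 15 purine permease genes 5 fell and 1 rose (median -0.36, or -0.21 without ref6-3 replicate 1 and -0.20 with the 1 CPM filter), with PUP1 (AT1G28230) at 8.93 ± 0.086 CPM in ref6-3 and 12.6 ± 0.14 CPM in WT (-0.50 ± 0.06) and PUP8 (AT4G18195) at 0.818 ± 0.071 CPM in ref6-3 and 2.06 ± 0.10 CPM in WT (-1.32 ± 0.19). A group of 15 genes described as cytochrome P450 with no further name had 7 lower and 1 higher (median -0.50, or -0.33 without ref6-3 replicate 3), AT1G66540 being at 0.705 ± 0.26 CPM in ref6-3 and 3.05 ± 0.19 CPM in WT (-2.12 ± 0.19). Of 22 F-box associated effector genes 4 fell (2 without WT replicate 2 or 3, by DESeq2 or with the 1 CPM filter) and 0 rose, near the 17.4% of all tested genes called lower (median -0.23, or -0.16 with 6 libraries in the fit), AT5G48550 being at 1.51 ± 0.36 CPM in ref6-3 and 2.75 ± 0.42 CPM in WT (-0.85 ± 0.16).

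On the rising side, 30 of 43 genes described as histones rose and 3 fell (median 0.17, a group that holds the list above). Of 15 thaumatin relatives, a family of defence proteins, 9 rose (5 without ref6-3 replicate 1 or WT replicate 3 or by DESeq2) and 1 fell (median 0.17), and AT1G20030 had 43.3, 39.8 and 41.2 CPM in ref6-3 and 18.99, 19.1 and 16.8 CPM in WT (1.17 ± 0.06, adjusted p = 1.4e-15). Arabinogalactan proteins of the cell surface divided: 14 of 26 rose, all by less than 2-fold (9 without WT replicate 3), and 7 fell, 5 of them 2-fold or more, such as AGP40 (AT3G20865) (9.09 ± 0.49 CPM in ref6-3 and 33.5 ± 1.6 CPM in WT, -1.88 ± 0.06) and AGP6 (AT5G14380) (6.84 ± 0.36 CPM in ref6-3 and 21.8 ± 2.7 CPM in WT, -1.67 ± 0.10), both known from pollen. Of 18 ovate family genes 6 rose (3 without WT replicate 1 or 3 or by DESeq2) and 0 fell. Of 19 CLE peptide genes 4 rose and 0 fell, a share of rises close to the 18.2% of all tested genes, with CLE41 (AT3G24770), a peptide of the vascular cambium, at 34.9997 ± 0.72 CPM in ref6-3 and 28.2 ± 1.9 CPM in WT (0.31 ± 0.05). Of 20 C2H2 zinc finger genes 4 rose and 2 fell, again close to that share, with NUB (AT1G13400), which acts in stamen and carpel growth, at 2.12 ± 0.36 CPM in ref6-3 and 1.096 ± 0.29 CPM in WT (0.94 ± 0.20). Of 22 LOB domain genes 5 rose (3 without ref6-3 replicate 2 or 3 or WT replicate 2, by DESeq2, with 6 libraries in the fit or above 1 CPM) and 4 fell, also near that share, and the median of 0.11 was -0.06 without ref6-3 replicate 1, with LBD10 (AT2G23660), known from pollen, at 2.13 ± 0.29 CPM in ref6-3 and 4.65 ± 0.21 CPM in WT (-1.12 ± 0.13).

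Genes changed 2-fold or more had a neighbour changed the same way more often than tested genes at large, for falls and for rises. Of 1139 such genes with a position 256 (22.5%) had a tested neighbour that also fell 2-fold or more, a property of 9.72% of all tested genes; for rises it was 18 of 164 (10.98%) and 1.45%. There were 24 runs of at least 3 neighbouring tested genes that all fell 2-fold or more, with 96 genes in all, and 0 such runs of rises. Rises of this size were far fewer (164 beside 1139), so the run counts do not compare the directions. The longest, of 13 genes, lies on chromosome 3 in a block of receptor-like kinase related and DUF26 genes, which encode secreted cysteine-rich repeat proteins (chr3:7715348-7770261, TAIR10.1 coordinates). Of 21 tested genes in that block 20 fell, 19 of them 2-fold or more. AT3G21970 had 5.79, 6.63 and 5.06 CPM in ref6-3 and 17.3, 17.6 and 18.01 CPM in WT (-1.59 ± 0.08, adjusted p = 1.6e-15) and AT3G21990 averaged 5.499 ± 0.37 CPM in ref6-3 and 15.5 ± 1.2 CPM in WT (-1.49 ± 0.09). The single gene that rose, AT3G21950, is described as a methyltransferase and had 4.92, 4.22 and 3.87 CPM in ref6-3 and 1.61, 2.21 and 2.102 CPM in WT (1.13 ± 0.14, adjusted p = 2.1e-07). The block and the genes named from it were singled out after their values were seen.

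A block of DUF1216 genes on chromosome 3 (chr3:10791499-10840059) fell as well. Of its 9 tested genes 8 fell, all 2-fold or more, and 1 rose slightly. AT3G28790 had 127, 120.5 and 126 CPM in ref6-3 and 432, 459 and 432 CPM in WT (-1.83 ± 0.03, adjusted p = 5.3e-26) and AT3G28830 averaged 132 ± 1.7 CPM in ref6-3 and 452 ± 8.5 CPM in WT (-1.78 ± 0.03). AT3G28760, within the block, averaged 28.2 ± 0.99 CPM in ref6-3 and 25.9 ± 0.55 CPM in WT (0.12 ± 0.05, adjusted p = 0.048), a call that ended under 11 of 13 other settings. In the first block ref6-3 lay below ref6C in 19 of 21 genes and above it in 0, and in the second below it in 6 of 9. Of all tested genes 13.8% were called lower in ref6-3 than in ref6C. AT3G28770 and AT3G28810 were not called between the mutants (adjusted p = 0.54 and 0.26). Neighbouring copies of a family can share reads, so values of single members of both blocks are uncertain.

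**Figure D5:**
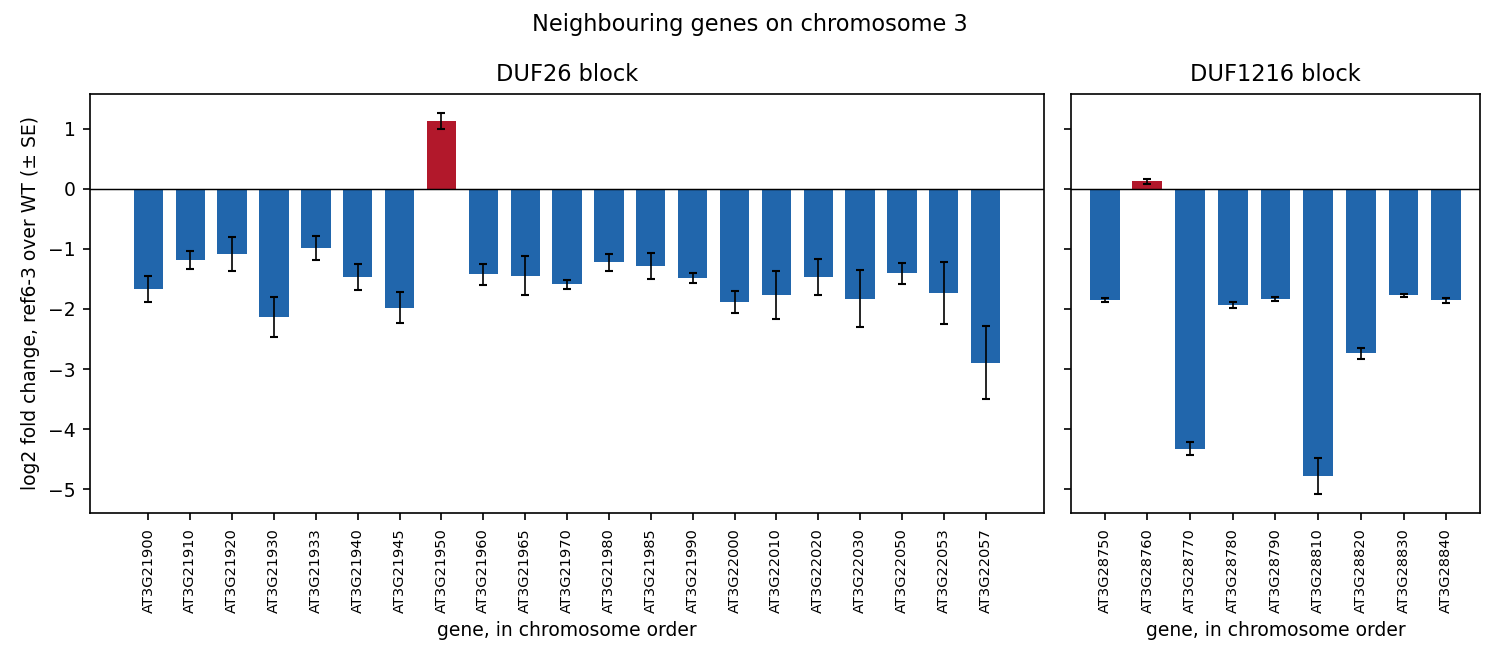
Log2 fold change of ref6-3 over WT (y axis, bars, with SE) for the tested genes of the DUF26 block (left) and the DUF1216 block (right) in chromosome order along the x axis, labelled by gene ID. All members of the first block lie below 0 except AT3G21950, and all of the second except AT3G28760.

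Transposable element genes were also counted. Of 302 tested 53 fell, 34 of them 2-fold or more (11.3% of the 302, beside 5.06% of all tested genes), and 30 rose, 9 of them 2-fold or more (2.98%, beside 0.726%). Most were not called (219 genes), and the median was -0.01.

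Set against ref6C, ref6-3 differed in several of these groups. Of all tested genes 3539 (15.7%) were higher and 3119 (13.8%) lower in ref6-3 than in ref6C. With ref6C replicate 3 in the fit 3759 were higher and 3844 lower. Cell cycle genes were higher in ref6-3 in 19 of 46 and lower in 1, SPL and TCP genes in 18 of 37 and lower in 5, chlorophyll genes in 12 of 23 and lower in 2. Nitrogen genes were higher in ref6-3 in 18 of 31 and lower in 5. The lower counts of the SPL and TCP list and of the nitrogen list are near the share of all tested genes. ER folding genes were lower in ref6-3 in 11 of 24 and higher in 1, and lignin genes lower in 9 of 17 and higher in 2. With ref6C replicate 3 in the fit these counts were 20 and 1, 20 and 4, 13 and 3, 17 and 7, 11 and 1, and 10 and 2. Both comparisons use the same ref6-3 libraries.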

How the data were processed

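Total RNA of closed buds was sequenced in 15 libraries of 5 genotypes with a stranded kit, per the labels' protocols. Tools in the submitters' processing notes are STAR, DESeq2 and RSEM 1.2.22, and the build is TAIR10. The authors also deposited FPKM values, which were not used here. The authors deposited whole-number counts per gene, with log2 fold changes and adjusted p-values of their own, per the file headers; whether these are rounded RSEM estimates is not stated. From the deposited fold changes the signs and adjusted p-values were used for one comparison of calls. All per-gene values here were computed from the deposited counts.

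Genes were filtered with filterByExpr by group, which kept 22586, and scaled by TMM. The quasi-likelihood test of edgeR 4.0.16 in R 4.3.3 was fitted to 14 libraries, leaving 9 residual degrees of freedom. P-values were adjusted over all tested genes, with calls below 0.05. Total counts were 26113603 to 34140165 in the 6 libraries compared. Gene lists were matched by symbol, 1176 of 1246 entries being found. The members and lists were chosen with earlier results of these data known. Named genes are the targeted demethylases, the 15 genes at each end of the ranking, and up to 4 called members per list by adjusted p. Up to 3 per family by size, called microRNA loci, and members that were not called were named too. The ranking took called genes with mean log2-CPM not under 1 and no overlap between groups. Genes with larger fold changes, such as APPB1 and CWINV2, lie outside it. Other named genes were chosen after their values were seen: CESA3, CNX1, CUC3, CYP79F1, FRA8, GA3OX1, GLN1;1, IRX8, LDOX, MYB46, NST2, NYC1, PAL1, PAP1, PAP2, SUS1, TIP1;2, TIP5;1, TPS03, TT7, UF3GT, ACT3, ARF6, and the ribosomal and chromosome 3 block genes. Families share a description and have at least 15 tested members; described were the 8 highest and 8 lowest medians and the 8 with most 2-fold changes. Self-tests used simulated counts. Alternatives were other size factors, filters, library sets, a replicate block, left-out libraries and DESeq2 1.42.0. Replicate numbers did not pair libraries (correlations of deviations 0.00, -0.20 and -0.07).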

Additional observations from a re-analysis of the deposited data

Results flagged for a closer look

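A count was found in 29547 genes in ref6C replicate 3, a library outside the comparison, against 25055 to 25712 genes in each of the other 14 libraries. It is listed because a signal appeared in data that no comparison here uses beyond the alternatives that add the library. By an earlier reading of the file headers, the authors left this library out of their own statistics. With it in the fit, 3632 genes were higher and 4145 lower in ref6-3 than in WT. Its source was not tested.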

How the results depend on the processing

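Replicate numbers did not pair the libraries, and with the replicate number as a block the higher genes in ref6-3 numbered 3883 and the lower ones 3806, 162 and 1132 of them 2-fold or more. By DESeq2 2616 genes were higher in ref6-3. Rises of 2-fold or more numbered 96 with a filter of 1 CPM in 3 libraries and 108 with 6 libraries in the fit. With the 1 CPM filter 170 genes were 2-fold or more above ref6C in ref6-3, against 264. Fewer genes and fewer libraries were tested there by construction; the cause of the DESeq2 difference was not tested. Leaving out 1 library gave 3000 to 3598 higher and 3471 to 3778 lower genes, with 141 to 162 and 1088 to 1146 at 2-fold or more. Against ref6C it gave 2461 to 3104 genes higher and 2276 to 2968 lower in ref6-3, with 236 to 264 and 632 to 697 at 2-fold or more. The authors' deposited table holds calls of its own: genes numbering 2648 are higher and 3077 lower in ref6-3. Of them 2639 and 3014 were called in both, and 0 were called in opposite directions. For the 190 named genes 2448 of 2465 alternative values kept their direction and their side of the threshold, 13 lost the call, 4 gained it and 0 turned; the genes concerned were AT3G28760, CESA3, EGL3, TT4, IRX14 and PARVUS. Of 1690 alternative counts of list and family members 123 moved by over 1.5 times, and of 845 alternative medians 184 moved by at least 1 SD between the ref6-3 libraries. Depth limits the sparse genes: below about 1 CPM a value rests on few reads.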
